A study of Arabidopsis thaliana with 6 samples.

Results

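Flavonoid pigments and sunscreens are switched on in Arabidopsis thaliana by a small set of transcriptional regulators, and the levels of 10 of them were described in stems by RNA sequencing. The 10 were PAP1, PAP2, MYB11, MYB12, MYB111, TT8, GL3, EGL3, TTG1 and MYBL2. They were chosen by locus identifier out of 24434 genes in the table, and the choice was made with the FPKM values of all 6 libraries already known, so their differences between genotypes are given as descriptions. FPKM is the number of fragments per kilobase of exons and scaled to the number of reads assigned to genes. All 10 loci were in the table under the listed names, and 5 of them (PAP1, PAP2, GL3, TTG1 and MYBL2) reached the mean of 1 FPKM over the 6 libraries that was required for the main test. The plants were of the Columbia ecotype, 3 wild-type (WT) and 3 overexpressing a gene labelled Bnt07G011994, each library being made from the stems of 1 plant at a stem length of about 10 cm. All were raised in a greenhouse at 22 °C with 15 h of light and 9 h of dark. The labels do not give the promoter of the transgene, whether the overexpressor plants belong to 1 line, or the hour at which stems were cut. The transgene itself was not analysed here.

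As background, anthocyanins and proanthocyanidins are made under control of the MBW complex, in which an R2R3-MYB protein, a bHLH protein and the WD40-repeat protein TTG1 act together. PAP1 and PAP2 are the MYB members that drive anthocyanin synthesis in vegetative tissue, and TT8, GL3 and EGL3 are the bHLH partners. MYB11, MYB12 and MYB111 work without a bHLH partner and drive the early genes that lead to flavonols, which are colourless ultraviolet screens. MYBL2 is a single-repeat MYB protein that binds the bHLH partners and represses anthocyanin synthesis. In stems, anthocyanins colour the epidermis and the cell layers just under it, and light, sugar and low nitrogen are known to raise them.

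The 6 libraries held 44597288 to 45642240 reads assigned to genes. WT replicate 1 stood apart from the other libraries, with a Spearman correlation across genes of 0.875 to 0.940 with each of them, against 0.971 to 0.997 among the other 5. WT replicates 2 and 3 were unusually alike, with squared differences 3.18 times those of read sampling, where the other pairs that leave out WT replicate 1 reached 8.66 to 24.4 times. The fibre and vessel markers CESA4, CESA7, CESA8 and NST3 were present in every library, with a summed level of 134 FPKM in WT replicate 1 and 586 to 894 FPKM in the others. The 5 flower markers summed to 0.695 to 2.35 FPKM. Of the seed markers, SESA3, CRA1 and OLEO1 stood at 0.401 to 1.00 FPKM in overexpressor replicate 1 and at or near 0 elsewhere, and FUS3 at 1.78 to 2.77 FPKM throughout. The summed level of 9 clock genes was 721 FPKM in WT replicate 1, 192 and 183 FPKM in WT replicates 2 and 3, and 269, 383 and 298 FPKM in overexpressor replicates 1, 2 and 3. These markers move with several of the values below, and their part in them was not tested. In such bulk samples fewer cells of a type and less RNA per cell cannot be told apart.

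The upstream sequences of PAP1, PAP2, MYB12 and TT8 are shown as examples. Across the libraries PAP2 and TT8 shared their highest, second and lowest library, and PAP1 and MYB12 followed other patterns. Each is the 300 bases before the annotated start of the gene in TAIR10.1, taken from the RefSeq genome and written 5′ to 3′ on the strand of the gene, with any match to the motifs searched in capitals. The motifs were the G-box CACGTG, the evening element AAAATATCT and the MYB elements ACCTACC and ACCAACC, each searched on both strands and with no overlap between different motifs in these windows. The PAP1 window is chr1:21235293-21235592 on the minus strand, the PAP2 window chr1:24763641-24763940 on the plus strand, the MYB12 window chr2:19476026-19476325 on the plus strand and the TT8 window chr4:6181581-6181880 on the plus strand.
PAP1: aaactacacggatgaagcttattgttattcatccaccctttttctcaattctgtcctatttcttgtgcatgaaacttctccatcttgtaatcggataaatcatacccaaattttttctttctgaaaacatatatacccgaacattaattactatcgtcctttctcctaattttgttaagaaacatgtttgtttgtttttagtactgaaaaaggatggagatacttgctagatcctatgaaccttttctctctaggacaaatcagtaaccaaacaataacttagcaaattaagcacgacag
PAP2: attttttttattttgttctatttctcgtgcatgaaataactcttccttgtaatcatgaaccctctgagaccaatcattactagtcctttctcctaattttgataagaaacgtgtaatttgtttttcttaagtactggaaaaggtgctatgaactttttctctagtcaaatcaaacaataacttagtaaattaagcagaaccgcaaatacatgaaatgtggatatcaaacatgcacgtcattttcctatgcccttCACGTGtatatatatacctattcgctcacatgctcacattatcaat
MYB12: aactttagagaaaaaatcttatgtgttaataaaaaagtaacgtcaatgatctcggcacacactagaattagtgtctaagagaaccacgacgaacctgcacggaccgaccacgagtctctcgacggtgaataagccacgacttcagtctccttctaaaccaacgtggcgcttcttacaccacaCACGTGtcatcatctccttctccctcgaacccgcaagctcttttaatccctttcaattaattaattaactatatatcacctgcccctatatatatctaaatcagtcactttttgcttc
TT8: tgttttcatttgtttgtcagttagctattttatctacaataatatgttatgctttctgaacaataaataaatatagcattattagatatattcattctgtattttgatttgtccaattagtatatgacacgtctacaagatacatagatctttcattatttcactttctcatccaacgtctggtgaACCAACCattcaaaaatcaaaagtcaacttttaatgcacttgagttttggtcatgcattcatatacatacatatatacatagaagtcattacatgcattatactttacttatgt

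A G-box lay 46 bases before the start of PAP2 and 118 bases before that of MYB12, and no PAP1 match to any of the 4 motifs was found in its window. The same window held a G-box in 7.09% of 27443 protein-coding genes. The PAP1 and PAP2 windows aligned over 159 columns with 72.3% identity, and their longest shared stretch was the 19 bases gtcctttctcctaattttg, 145 bases before the start of PAP1 and 218 before that of PAP2. TT8 held the MYB element ACCAACC 114 bases before its start, which 3.18% of genes hold. MYBL2 was the only regulator with an evening element, which 2.79% of genes hold, 221 bases before its start. That stretch (chr1:26796735-26796763, minus strand) reads cggaagcttcAGATATTTTatcaaataat, the capitals being the element on the opposite strand, and it lies inside the last annotated exon of the neighbouring gene AT1G71040. No match was found in the windows of MYB11, MYB111, GL3, EGL3 and TTG1. A match is a run of letters and not a measured binding site.

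The regulators spanned a wide range of levels per kilobase, and the order of their mean FPKM over the 6 libraries was TTG1 (43.5), MYBL2 (16.9), PAP1 (11.1), PAP2 (7.45), GL3 (1.11), TT8 (0.891), MYB111 (0.758), EGL3 (0.436), MYB11 (0.345) and MYB12 (0.258). TTG1 exceeded MYBL2, and MYBL2 exceeded PAP1, within each of the 6 libraries, although the ranges over libraries overlapped in both cases. PAP1 was above PAP2 in 3 of 6 libraries, so the order of the pair was not fixed. The only break between neighbours without overlapping ranges was the one between PAP2, lowest at 2.17 FPKM, and GL3, highest at 1.61 FPKM. From GL3 down to MYB12 each neighbouring pair overlapped. The plot of levels by library shows the 10 genes side by side.

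**Figure D1:**
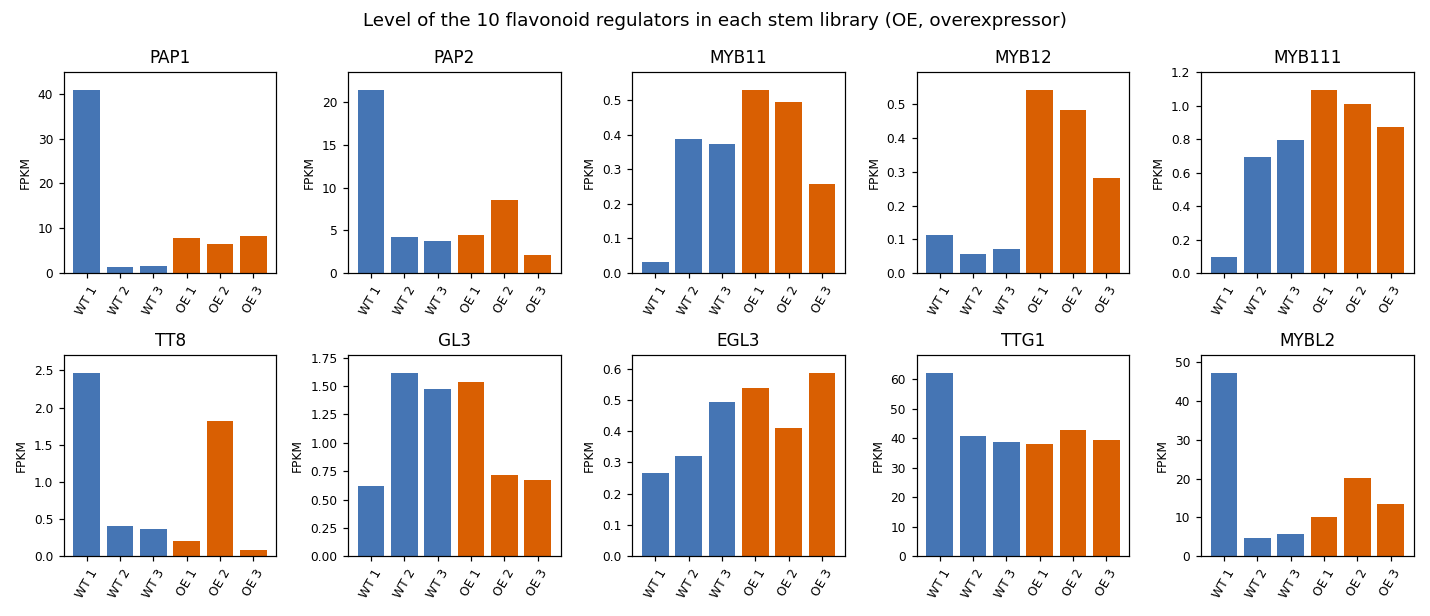
Level of each regulator in FPKM (vertical axis, from 0, scaled per gene) in the 3 WT libraries (blue) and the 3 overexpressor libraries (orange), 1 bar per library. WT replicate 1 was the highest library for PAP1, PAP2, TT8, TTG1 and MYBL2 and the lowest for MYB11, MYB111, GL3 and EGL3.

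None of the 5 regulators tested was called between genotypes over all 6 libraries with limma on log2(FPKM + 1) at an adjusted p under 0.05, where 0.0119% of 16870 genes were called. None of the 5 had an unadjusted limma p under 0.05, where 916 of 16870 genes had. Voom on the recovered reads also called 0 of the 5, with 0 at that level. With no filter on low values, 0 of 10 were called, against 0.0164% of 24434 genes. In that fit 1 regulator, MYB12, had an unadjusted limma p under 0.05, as had 1464 of the 24434 genes. Leaving out WT replicate 1, 1 of the 5, PAP1, was called upward, where 0.136% of 16870 genes were called in either direction. The WT side of that fit is WT replicates 2 and 3, whose close likeness makes its p-values depend on 2 nearly equal libraries. Over all 6 libraries the fold changes of PAP1, PAP2 and MYBL2 carried wide 95% intervals, from -2.31 to 3.16 for PAP1, from -2.31 to 1.13 for PAP2 and from -1.75 to 2.37 for MYBL2. For PAP1 and MYBL2 these intervals did not exclude a difference of several fold in either direction, and for PAP2 one of several fold downward.

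**Figure D2:**
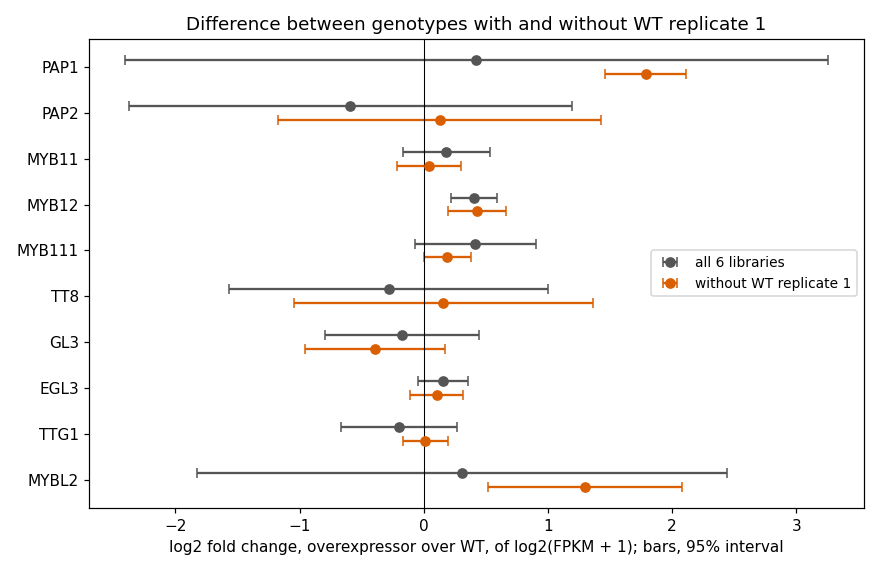
Log2 fold change of each regulator, overexpressor over WT, on the log2(FPKM + 1) scale (horizontal axis), with its 95% interval, from limma with no filter over all 6 libraries (grey) and without WT replicate 1 (orange). The estimates for PAP1 and MYBL2 moved from 0.42 and 0.31 to 1.79 and 1.30 when that library was left out, and that for MYB12 only from 0.41 to 0.43.

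PAP1 (AT1G56650; chromosome 1, 21233555 to 21235292, minus strand, protein-coding, 3 exons), the main MYB activator of anthocyanin genes in seedlings and shoots, had the widest range of the 10 on the log2(FPKM + 1) scale. WT replicates 1, 2 and 3 gave 40.8, 1.43 and 1.49 FPKM, and overexpressor replicates 1, 2 and 3 gave 7.76, 6.54 and 8.28 FPKM. One WT plant was thus far above the overexpressor and the other WT plants far below it, while the 3 overexpressor plants were close together. The values rest on 2018, 72 and 74 reads in WT and 391, 331 and 414 in the overexpressor. The level in WT replicate 1 was 27.9 times the mean of WT replicates 2 and 3, a ratio reached by 10 of 16870 genes (0.0593%). The means were 14.6 ± 22.7 FPKM for WT and 7.52 ± 0.892 FPKM for overexpressor plants (± SD, n = 3 per group), a log2 difference of 0.42 (SE 1.12, limma adjusted p = 0.917). Its sign turned without WT replicate 2 or 3 (-0.26 and -0.25), and without WT replicate 1 it was 1.79 (SE 0.12, limma adjusted p = 0.00916), all 3 overexpressor plants lying above both remaining WT plants and their mean at 5.15 times that of the WT pair. That call was lost with no filter (limma adjusted p = 0.0646) and in voom with no filter (0.103). More genes were tested there. The unadjusted p of PAP1 also rose, from 5.71e-06 (limma) to 5.55e-05 (limma, no filter) and 1.1e-04 (voom, no filter).

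PAP2 (AT1G66390, named MYB90 in the reference; chromosome 1, 24763941 to 24765541, plus strand, protein-coding, 3 exons), the nearest relative of PAP1, did not follow it within the overexpressor. WT replicates 1, 2 and 3 gave 21.4, 4.26 and 3.80 FPKM, and overexpressor replicates 1, 2 and 3 gave 4.46, 8.59 and 2.17 FPKM. The groups overlapped, and the overexpressor plants spread 3.96-fold where those of PAP1 spread 1.27-fold. Its means were 9.83 ± 10.0 FPKM for WT and 5.07 ± 3.26 FPKM for overexpressor plants (± SD, n = 3 per group), a log2 difference of -0.59 (SE 0.70, limma adjusted p = 0.828) that became 0.13 without WT replicate 1. The exons of PAP1 and PAP2 matched each other over 864 bp at 82.1% identity. A stretch of 131 bp of PAP2 matched MYB114, its neighbour on chromosome 1, at 96.9%, so reads from that stretch could be assigned to either gene. MYB114 stood at 0.0193 to 0.153 FPKM and MYB113, the other MYB gene of the cluster, at 0 in 5 libraries.

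MYBL2 (AT1G71030; chromosome 1, 26795052 to 26796532, minus strand, protein-coding, 2 exons), the repressor, was highest in the same plant as PAP1 and PAP2. WT replicates 1, 2 and 3 gave 47.1, 4.69 and 5.62 FPKM, and overexpressor replicates 1, 2 and 3 gave 10.2, 20.2 and 13.5 FPKM. As for PAP1, WT replicate 1 lay above all overexpressor plants and these lay above WT replicates 2 and 3. The means were 19.1 ± 24.2 and 14.6 ± 5.12 FPKM (± SD, n = 3 per group), a log2 difference of 0.31 (SE 0.84, limma adjusted p = 0.919). That fold change was 1.30 (SE 0.26, limma adjusted p = 0.188) without WT replicate 1, and -0.24 and -0.13 without WT replicate 2 or 3. The ratio of MYBL2 to the sum of PAP1 and PAP2 lay between 0.757 and 1.06 in WT and between 0.834 and 1.34 in the overexpressor. The ratio of MYBL2 to PAP1 alone ranged more widely, from 1.15 to 3.78 in WT and from 1.31 to 3.09 in the overexpressor. The sum of PAP1 and PAP2 was 62.2 FPKM in WT replicate 1 and 5.29 to 15.1 FPKM in the other 5 libraries.

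The genes with profiles most like those of PAP1 and MYBL2 were of several kinds. Likeness was measured as the root mean square difference between profiles of log2(FPKM + 1) over the 6 libraries, each centred on its own mean, among the 16870 genes tested. For PAP1 the nearest gene was PRR5, a pseudo-response regulator of the clock, at 0.376, against a median of 1.38 over all genes. PRR5 measured 121, 7.97 and 7.88 FPKM for WT replicates 1, 2 and 3, then 26.6, 48.3 and 36.7 FPKM for overexpressor replicates 1, 2 and 3. Within the overexpressor, PRR5 was thus highest in replicate 2, where PAP1 was lowest. The terpene synthase TPS03 (0.395) and the cytochrome P450 CYP71B26 (0.411) were the next nearest to PAP1. For MYBL2 the nearest were COL5, a CONSTANS-like zinc finger gene (0.133), FKF1, a blue-light receptor of the photoperiod pathway (0.135), and the protein kinase CIPK20 (0.158), against a median of 1.03. COL5 measured 39.0, 3.46 and 3.51 FPKM for WT replicates 1, 2 and 3, then 9.34, 16.8 and 10.9 FPKM for overexpressor replicates 1, 2 and 3, which is the library order of MYBL2. The places of the clock genes tested, for PAP1, were PRR5 1, GI 4, PRR7 11, PRR9 12, ELF4 29, CCA1 41, LUX 187 and TOC1 2066. LUX, at place 187, had the same order of all 6 libraries as PAP1. For MYBL2 the places were PRR7 4, PRR9 8, ELF4 18, GI 27, PRR5 29, CCA1 46, LUX 349 and TOC1 2095. MYBL2 was the 14th nearest gene to PAP1 of 16869, and PAP2 the 197th.

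The order shared by PAP1 and MYBL2, with WT replicate 1 above the overexpressor and the whole overexpressor above WT replicates 2 and 3, was singled out after the values were seen. It was found in 4.28% of all genes in the table, in 2 of the 10 regulators and in 6 of 9 clock genes (GI, PRR5, PRR7, PRR9, LUX and ELF4), but not in TOC1, CCA1 and LHY. All 9 clock genes were highest in WT replicate 1, as were 35.9% of all genes. GI, a daytime clock gene, measured 94.7, 6.85 and 6.98 FPKM across WT replicates 1, 2 and 3, then 24.3, 44.2 and 30.9 FPKM across overexpressor replicates 1, 2 and 3. The part of the hour of sampling was not tested.

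**Figure D3:**
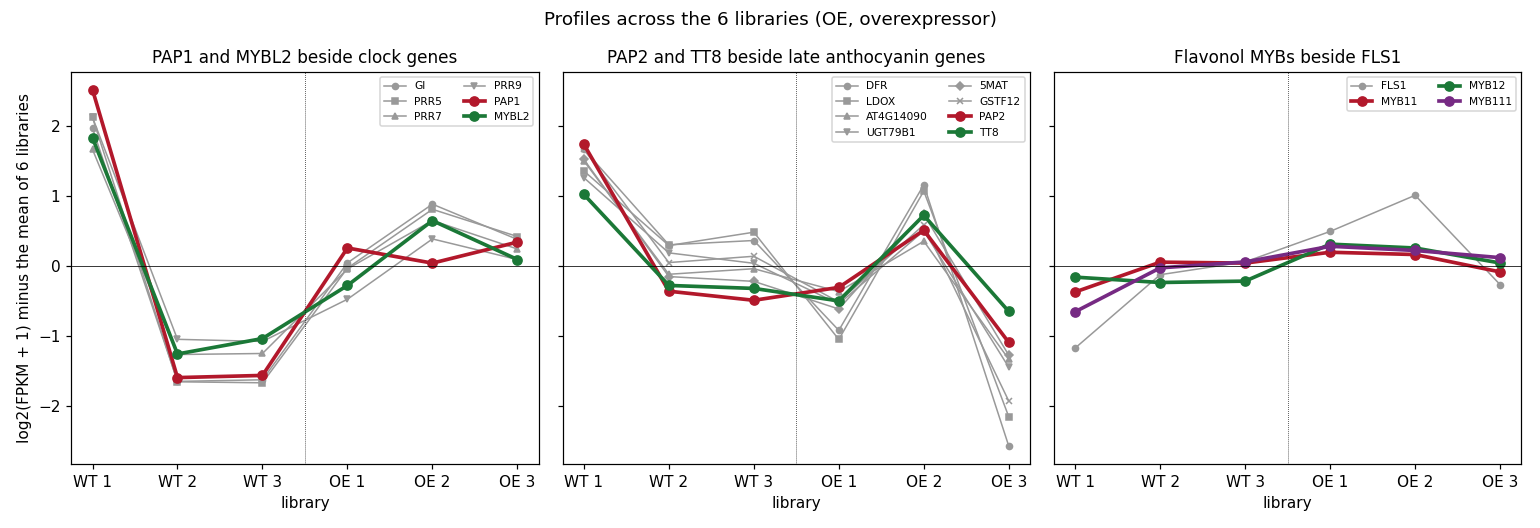
Log2(FPKM + 1) of each gene minus its mean over the 6 libraries (vertical axis) against library (horizontal axis, OE for overexpressor), with regulators in colour and other genes in grey. PAP1 and MYBL2 and the 4 clock genes drawn (GI, PRR5, PRR7 and PRR9) are lowest in WT replicates 2 and 3, PAP2, TT8 and the 6 late anthocyanin genes are lowest in overexpressor replicate 3, and MYB11 and MYB111 share with FLS1 a minimum in WT replicate 1.

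Of the bHLH partners, TT8 (AT4G09820; chromosome 4, 6181881 to 6186523, plus strand, protein-coding, 7 exons), known for its role in seed coat and anthocyanin pigment and for activating its own promoter, varied most. It measured 2.46, 0.408 and 0.367 FPKM for WT replicates 1, 2 and 3 (220, 37 and 33 reads). In overexpressor replicates 1, 2 and 3 it stood at 0.208, 1.81 and 0.0885 FPKM (19, 166 and 8 reads). The groups overlapped, and overexpressor replicate 2 was 20.5 times overexpressor replicate 3. The log2 fold change was -0.28 with no filter (SE 0.52, limma adjusted p = 0.881) and 0.16 without WT replicate 1 as well (0.934). In voom with no filter these values were -1.12 (SE 1.23) and -0.24 (SE 1.25).

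GL3 (AT5G41315; chromosome 5, 16529090 to 16533287, plus strand, protein-coding, 7 exons), which with its close relative EGL3 also controls trichome fate, had another order. WT replicates 1, 2 and 3 gave 0.622, 1.61 and 1.48 FPKM, and overexpressor replicates 1, 2 and 3 gave 1.54, 0.714 and 0.673 FPKM. Each group held plants at both levels, and the log2 fold change was -0.18 (SE 0.26, limma adjusted p = 0.858). It ranged from -0.39 without WT replicate 1 to -0.05 without WT replicate 2, and was -0.33 in voom. Of its 2702 bp of exons, 36 bp lie opposite another locus. EGL3 (AT1G63650; chromosome 1, 23599413 to 23603164, plus strand, protein-coding, 7 exons) measured 0.266, 0.321 and 0.494 FPKM across WT replicates 1, 2 and 3, then 0.538, 0.410 and 0.585 FPKM across overexpressor replicates 1, 2 and 3, the steadiest of the bHLH genes. Its log2 fold change with no filter was 0.15 (SE 0.08, limma adjusted p = 0.815), and 0.53 (SE 0.33) in voom, 0.10 and 0.34 without WT replicate 1. The exons of GL3 and EGL3 matched over 1931 bp at 76.1% identity.

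The make-up of the bHLH transcripts differed between plants more than their sum did. The sum of the bHLH levels was 2.34 to 3.35 FPKM in WT and 1.35 to 2.94 FPKM in the overexpressor. TT8 made up 73.5% of it in WT replicate 1 and 61.8% in overexpressor replicate 2, but 6.57 to 17.4% in the other 4 libraries. GL3 was the largest part in those 4 libraries, up to 68.9% in WT replicate 2.

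**Figure D4:**
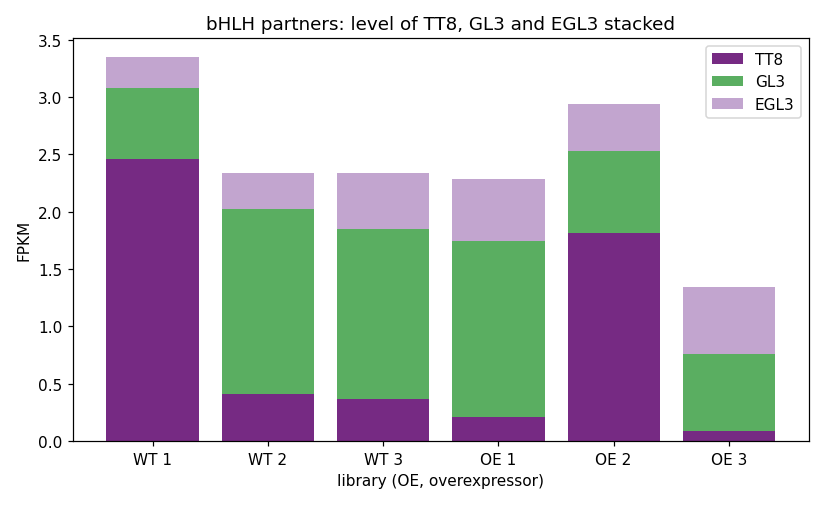
Stacked levels of TT8, GL3 and EGL3 in FPKM (vertical axis, from 0) in each library (horizontal axis, OE for overexpressor). TT8 is the largest part in WT replicate 1 and overexpressor replicate 2, and GL3 in the other 4 libraries.

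TTG1 (AT5G24520; chromosome 5, 8370317 to 8372847, minus strand, protein-coding, 3 exons), the WD40 scaffold shared by pigment, trichome and root hair complexes, was the most even of the regulators with a mean of at least 1 FPKM within the overexpressor. WT replicates 1, 2 and 3 gave 61.9, 40.7 and 38.6 FPKM, and overexpressor replicates 1, 2 and 3 gave 38.0, 42.8 and 39.3 FPKM. WT replicate 1 was again highest, at 1.56 times the mean of the other WT plants, a ratio reached by 11.4% of the genes tested. The means were 47.1 ± 12.9 and 40.0 ± 2.48 FPKM (± SD, n = 3 per group), a log2 difference of -0.20 (SE 0.19, limma adjusted p = 0.805) that was 0.01 (95% interval -0.19 to 0.22) without WT replicate 1. Per kilobase, TTG1 was 14.6 to 29.2 times the sum of the bHLH genes in every library. It made up 35.4% of the summed level of the 10 regulators in WT replicate 1 and 51.5 to 74.6% in the others.

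The flavonol MYB genes were low in all stems and lowest, as a sum, in WT replicate 1. MYB111 (AT5G49330; chromosome 5, 19998823 to 20001572, minus strand, protein-coding, 3 exons) measured 0.0962, 0.690 and 0.792 FPKM for WT replicates 1, 2 and 3 (7, 51 and 58 reads). In overexpressor replicates 1, 2 and 3 it stood at 1.09, 1.01 and 0.870 FPKM (81, 75 and 64 reads). The groups did not overlap, with every overexpressor plant above every WT plant, by little for WT replicates 2 and 3. With no filter the log2 fold change was 0.41 (SE 0.20, limma adjusted p = 0.815), and 0.19 (0.473) without WT replicate 1. In voom with no filter these values were 1.36 (SE 0.72) and 0.41 (SE 0.21).

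MYB12 (AT2G47460; chromosome 2, 19476326 to 19479597, plus strand, protein-coding, 3 exons), a light-induced activator of chalcone synthase and flavonol synthase, differed between genotypes without overlap. WT replicates 1, 2 and 3 gave 0.113, 0.0558 and 0.0704 FPKM, and overexpressor replicates 1, 2 and 3 gave 0.542, 0.484 and 0.280 FPKM. These values rest on few reads, 8, 4 and 5 in WT and 39, 35 and 20 in the overexpressor, and WT replicate 1 lay with the other WT plants. The log2 fold change was 0.41 on the log2(FPKM + 1) scale with no filter (SE 0.08, limma adjusted p = 0.549), and 0.43 (0.284) without WT replicate 1 as well. In voom on the reads with no filter it was 2.35 (SE 0.46, adjusted p = 0.792), a larger value because the added 1 FPKM exceeds the level of the gene. It passed the threshold in neither fit. MYB12 and MYB111 were the 2 of 10 regulators higher in every overexpressor plant, as were 4.67% of all genes in the table, and no regulator was lower in every overexpressor plant, as were 8.63% of all genes.

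MYB11 (AT3G62610; chromosome 3, 23154630 to 23156585, plus strand, protein-coding, 3 exons) measured 0.0326, 0.386 and 0.373 FPKM for WT replicates 1, 2 and 3 (2, 24 and 23 reads). In overexpressor replicates 1, 2 and 3 it stood at 0.528, 0.494 and 0.258 FPKM (33, 31 and 16 reads). The groups overlapped, and the log2 fold change with no filter was 0.18 (SE 0.14, limma adjusted p = 0.815). It was 0.04 without WT replicate 1 as well, and 1.18 (SE 0.90) in voom on the reads with no filter. Of its 1374 bp of exons, 110 bp lie opposite another locus, and whether counting used strand is not stated. The sum of the flavonol MYB genes was 0.242, 1.13 and 1.24 FPKM in WT replicates 1, 2 and 3 and 2.16, 1.99 and 1.41 FPKM in overexpressor replicates 1, 2 and 3, without overlap between groups. This sum holds MYB12 and MYB111, which did not overlap on their own, so it is not a further result.

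Genes that these regulators are known to act on were read from lists of textbook roles. No gene of the 6 lists was called with limma, 0 of 27 tested, with 1 (MYB32) at an unadjusted p under 0.05. Over all 16870 genes tested, 2 were called and 916 had an unadjusted limma p under 0.05. Voom on the recovered reads gave the same counts for the lists. Only 1 of 4 proanthocyanidin genes and 0 of 2 trichome targets were among those tested. Of 6 late anthocyanin genes, all had negative log2 fold changes, with a median of -1.11 against -0.04 over all genes tested. Without WT replicate 1 the medians were -0.66 and -0.02. In each of the 6, overexpressor replicate 2 lay above WT replicates 2 and 3, so the groups overlapped. The 6 genes shared their highest, second and lowest library, so their signs are not separate observations. DFR, the first enzyme committed to anthocyanins, measured 48.9, 18.4 and 19.3 FPKM for WT replicates 1, 2 and 3, then 7.35, 34.2 and 1.66 FPKM for overexpressor replicates 1, 2 and 3. Its log2 fold change was -1.55 (SE 0.95, limma adjusted p = 0.805). Overexpressor replicates 1 and 3 lay below every WT plant and overexpressor replicate 2 above 2 of 3. LDOX, the next enzyme, stood at 22.5, 10.3 and 11.9 FPKM and at 3.46, 18.3 and 1.08 FPKM, and the anthocyanidin 5-O-glucosyltransferase gene AT4G14090 at 28.9, 8.75 and 9.31 FPKM and at 7.22, 12.5 and 3.22 FPKM, in the same order.

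The late genes had the same highest, second and lowest library as PAP2 and TT8, while PAP1 shared only the highest. WT replicate 1 was highest, overexpressor replicate 2 second and overexpressor replicate 3 lowest in PAP2, TT8, all 6 late genes and 2 of the 10 early and flavonol genes (F3H and UGT78D2), an order singled out after the values were seen and found in 2.29% of all genes. Overexpressor replicate 1 stood above WT replicates 2 and 3 in PAP2 (4.46 against 4.26 and 3.80 FPKM). It stood below both in TT8 and all 6 late genes. The ratio of overexpressor replicate 2 to overexpressor replicate 3 ran from 3.89 (AT4G14090) to 20.5 (DFR) over the 6 late genes. It was 3.96 in PAP2, 20.5 in TT8 and 0.790 in PAP1. The TT8 ratio rests on 8 reads in overexpressor replicate 3. By the same measure of likeness as above, the nearest genes to PAP2 were the acyl-transferase gene AT1G03495 (0.200), UGT84A2, which glucosylates sinapic acid (0.222), and 5MAT, which malonylates anthocyanins (0.239), against a median of 0.889. 5MAT, one of the late genes, measured 9.08, 2.17 and 2.02 FPKM for WT replicates 1, 2 and 3, then 1.30, 4.86 and 0.459 FPKM for overexpressor replicates 1, 2 and 3. TTG2, a trichome and seed coat target of the MBW complex, had this order too, at 1.79 FPKM in WT replicate 1 and 0.229 FPKM in overexpressor replicate 3, while GL2, the other trichome target, had not.

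Of 9 early and flavonol genes tested, 3 had positive and 6 negative log2 fold changes (median -0.33, and -0.15 without WT replicate 1). CHS, the entry enzyme of the pathway, measured 22.2, 30.9 and 30.7 FPKM for WT replicates 1, 2 and 3, then 12.8, 47.1 and 4.06 FPKM for overexpressor replicates 1, 2 and 3, an 11.6-fold spread between overexpressor replicates 2 and 3. FLS1, flavonol synthase, named after its values were seen, was lowest in WT replicate 1 like MYB11 and MYB111, at 0.180 FPKM against 1.43 and 1.76 FPKM in the other WT plants and 2.73, 4.33 and 1.21 FPKM in the overexpressor. The flavonol glycosyltransferases UGT78D1 and UGT78D2 were far more even, at 11.9 to 15.5 and 9.27 to 18.1 FPKM over the 6 libraries. Of the proanthocyanidin genes of the seed coat, BAN, TT12 and TT10 did not exceed 0.526 FPKM, and AHA10 stood at 1.60 to 2.21 FPKM.

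Among other regulators of the pathway, the light-signalling factors HY5 and HYH stood at 11.4 and 11.7 FPKM in WT replicate 1 and at 5.09 to 8.74 and 6.53 to 8.91 FPKM in the other libraries. The bHLH factor MYC1 stood at 1.11 to 3.09 FPKM. GL1 was not in the table. Of 8 other repressors tested, 5 had positive and 3 negative log2 fold changes (median 0.16, and 0.05 without WT replicate 1). MYB32, the most abundant, measured 26.9, 25.2 and 22.6 FPKM across WT replicates 1, 2 and 3, then 16.8, 22.0 and 20.7 FPKM across overexpressor replicates 1, 2 and 3, without overlap (log2 fold change -0.32, SE 0.13, limma adjusted p = 0.805). It was the 1 of 13 repressors listed that was lower in every overexpressor plant, as were 8.63% of all genes. Of the 13 repressors listed, 6 were lowest in WT replicate 1 (ETC1, ETC2, MYB4, LBD37, LBD38 and LBD39), as were 27.7% of all genes, and 4 were highest there (TRY, ETC3, MYB32 and COP1), as were 35.9% of all genes. LBD37 and LBD38, nitrate-induced repressors of anthocyanin synthesis, are given as examples of the first kind and TRY, a repressor of trichome fate, of the second. LBD37 stood in WT replicate 1 at 7.99 FPKM against 14.9 to 29.0 FPKM elsewhere, and LBD38 at 0.240 FPKM against 2.05 to 7.73 FPKM. TRY stood there at 19.9 FPKM against 6.36 to 11.2 FPKM elsewhere. COP1, the light-signalling ubiquitin ligase that marks PAP1 and PAP2 for breakdown, stood at 18.1 to 25.4 FPKM in the 6 libraries.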

How the data were processed

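The submitters' processing notes name the spliced aligner HISAT2. No version, genome build, annotation or strand setting is stated by the labels or the file. FPKM values for 24434 genes were deposited by the authors as 1 table with 1 column per library, and each column was matched to a sample by its name. FPKM multiplied by the union exonic length in TAIR10.1 gave whole reads for 100% of values within 0.1 reads, which shows the depth of each library. Coordinates are those of TAIR10.1.

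The main test was limma 3.58.1 (R 4.3.3) on log2(FPKM + 1), with its variance trend on mean level, over the 16870 genes averaging 1 FPKM or more, two-sided, Benjamini-Hochberg adjusted over all of them, threshold 0.05, WT against overexpressor. The script was tested on simulated data in which no library stood apart, so that test does not cover a library like WT replicate 1. Alternatives were other pseudocounts (0.1 and 0.01), no filter or 5 FPKM, median-ratio scaling, voom on recovered reads, the replicate number as a block and leaving out each library. An exact permutation test of 3 against 3 cannot go below p = 0.1. The samples are separate plants per the labels, and p-values measure spread between them.

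The regulators, gene lists and tests were chosen with earlier results of these data known. All 10 regulators are named; of each pathway list the 3 genes of highest mean FPKM are named where fewer than 3 were called, and for the 3 regulators of widest range the 3 genes of nearest profile. Other named genes were chosen after their values were seen.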

Additional observations from a re-analysis of the deposited data

How the results depend on the processing

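The genes called between genotypes numbered 2 as reported, 4 with no filter, 1 with voom on recovered reads and 0 with the replicate block, and 1 to 23 when each library was left out. With alternatives added after the data were seen they numbered 17 with no filter and without WT replicate 1, 1 with voom and no filter, and 10 with voom, no filter and without WT replicate 1. The regulators called numbered 0 as reported and 0 to 1 when each library was left out, the 1 being PAP1 without WT replicate 1 (log2 fold change 1.79), and 0 under all the other alternatives. The flavonoid pathway genes called numbered 0 throughout. Some fold changes turned sign among regulators with a mean of at least 1 FPKM. That of PAP1 did so without WT replicate 2 (-0.26) or 3 (-0.25), and that of MYBL2 without WT replicate 2 (-0.24) or 3 (-0.13). Without WT replicate 1, PAP2 turned (0.13, also with no filter, and 0.12 in voom with no filter). TTG1 turned there as well (0.0132, also with no filter, and 0.0135 in voom with no filter). With no filter, TT8 turned from -0.28 to 0.16 without WT replicate 1 in limma, but stayed negative in voom (-1.12 and -0.24). When each library was left out, fold changes ran from -0.26 to 1.79 for PAP1, from -0.99 to 0.13 for PAP2, from -0.32 to 0.0132 for TTG1, from -0.24 to 1.30 for MYBL2 and from -0.39 to -0.05 for GL3, which was negative in every fit run. The cause of these turns was not tested. Whether the replicate numbers pair the plants was not settled. Deviations from group means correlated at -0.603, -0.592 and 0.0282 across genes for numbers 1, 2 and 3. Each WT replicate correlated best with another number (0.622, 0.583 and 0.584). Deviations within a group sum to 0, and WT replicate 1 lay far from the others, so these values are not independent and cannot decide it. Depth limits MYB12 in all 3 WT libraries, at 4 to 8 reads, MYB11 and MYB111 in WT replicate 1, at 2 and 7 reads, and TT8 in overexpressor replicate 3, at 8 reads.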
